A study of Mus musculus with 4 samples.

Results

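Of the 23337 gene symbols counted in each library, 10 belong to the core of the Notch pathway and are described here. They were chosen by name, as the receptors Notch1, Notch2 and Notch3, the ligands Dll1, Dll3, Jag1 and Jag2, and the target genes Hes1, Hes5 and Hey1. All 10 symbols were found. Their RNA was measured in sorted Tomato-positive olfactory epithelial cells of 4 adult mice of mixed background, with 1 mouse per sample. Cells of the 2 control mice were Lmnb1+/- and cells of the 2 mutant mice were Lmnb1-/-, so that the controls also carried 1 deleted allele of the gene for lamin B1, a protein of the nuclear lamina. All mice carried Cre recombinase under the Keratin 5 promoter and a Cre-dependent Tomato reporter, which mark horizontal basal cells, the reserve stem cells of this tissue, and every cell type they give rise to. All mice received 2 injections of 50 mg/kg methimazole, which damages the epithelium, and recovered for 4 weeks. The mice formed 2 experimental groups, each with 1 control and 1 mutant littermate. The littermates of a group shared treatment batch, parents, age, sex, sample preparation and sequencing, and these may differ between the groups. Control 1 and mutant 1 were littermates in experimental group 1, and control 2 and mutant 2 were littermates in experimental group 2.

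Notch signalling passes between touching cells. A ligand of the Delta or Jagged family on one cell binds a Notch receptor on its neighbour, the receptor is cut by an ADAM protease and then by gamma-secretase, and the freed intracellular part enters the nucleus, where it joins the DNA-binding protein RBPJ and switches on genes such as Hes1, Hes5 and Hey1. The Hes and Hey proteins are repressors that hold down proneural genes, which drive neuronal differentiation. In the olfactory epithelium the pathway is known for its part in the choice between neuronal and supporting cell fates and in the dormancy of horizontal basal cells.

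Gene counts summed to between 14833396 and 23704638 per library. The targeted gene Lmnb1 had 20.6 and 18.8 counts per 1000000 (CPM) in the controls and 14.1 and 10.1 CPM in the mutants. These counts cover all its exons, of which only 1 is floxed. Lmnb1 did not pass the threshold used below (log2 fold change -0.72, edgeR adjusted p = 0.195). The paper reported less Lmnb1 transcript in sorted mutant cells by PCR of exons other than the floxed one. It also found most Tomato-positive mutant cells negative for lamin B1 by antibody staining. Sorted cells of all 4 libraries held the markers of the tissue, among them Omp of mature neurons, Cyp2g1 of sustentacular (supporting) cells and Krt5 of horizontal basal cells. Mutant 1 stood apart. In it 39.4% of uniquely aligned reads lay outside annotated genes, compared with 22.1% to 24.9% in the other libraries, and 1603 genes had 0 counts, compared with 5173 to 6053. The tested Notch genes and the other pathway genes that passed are therefore given with the ratio in each experimental group, since that in experimental group 2 does not use mutant 1.

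Promoter sequences are shown for Dll1, the ligand that changed most, and for Hes5, a target gene that carries the binding sequence of the pathway. RefSeq promoter windows of 300 bases (250 before and 50 after the annotated start, GRCm38.p6) were found for 8 of the 10 genes, in 9 windows, since Dll1 has 2 annotated starts. Hes1 and Hey1 had no entry. The letters TGGGAA, the core bound by RBPJ, were searched on both strands and are printed in capitals (TTCCCA where they lie on the opposite strand). The windows are printed 5′ to 3′ on the strand of the gene. They lie at chr17:15375774-15376073 (minus strand, Dll1 first start), chr17:15376883-15377182 (minus strand, Dll1 second start) and chr4:154960673-154960972 (plus strand, Hes5). First and second are the order in which the Dll1 windows were listed. On the minus strand the second lies upstream of the first, and it lies outside the span of Dll1 given below.
Dll1 first start: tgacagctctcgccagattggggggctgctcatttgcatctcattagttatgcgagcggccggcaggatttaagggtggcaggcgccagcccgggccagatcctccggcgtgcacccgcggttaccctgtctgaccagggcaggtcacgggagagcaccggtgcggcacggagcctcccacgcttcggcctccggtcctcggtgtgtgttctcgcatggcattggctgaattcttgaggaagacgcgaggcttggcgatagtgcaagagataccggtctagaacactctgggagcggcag
Dll1 second start: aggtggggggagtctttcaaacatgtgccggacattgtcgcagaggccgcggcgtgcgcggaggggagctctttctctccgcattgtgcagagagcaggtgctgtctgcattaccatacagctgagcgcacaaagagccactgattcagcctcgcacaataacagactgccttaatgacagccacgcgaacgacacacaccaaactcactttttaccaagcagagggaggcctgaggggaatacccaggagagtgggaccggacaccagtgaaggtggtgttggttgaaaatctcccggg
Hes5: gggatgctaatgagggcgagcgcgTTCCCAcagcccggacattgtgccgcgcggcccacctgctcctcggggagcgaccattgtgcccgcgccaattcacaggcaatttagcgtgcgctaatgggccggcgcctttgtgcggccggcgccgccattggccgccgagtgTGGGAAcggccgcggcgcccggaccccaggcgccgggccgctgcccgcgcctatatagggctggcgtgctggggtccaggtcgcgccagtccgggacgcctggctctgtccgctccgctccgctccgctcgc

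Of the 9 windows, 1 held TGGGAA, namely that of Hes5, with matches that begin at -226 and -82 relative to the annotated start. Among all 32851 promoter windows of the same length, 25.6% held it. The letters CACNAG, the N-box bound by Hes proteins, were in 4 of the 9 windows, those of Notch1, Notch2, Notch3 and the second start of Dll1, compared with 42.5% of all windows. The windows were 52.0% to 86.0% G and C, and the median of all windows was 52.7%.

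Levels of different genes were compared as CPM per kb of exon, with all annotated exons of a gene merged. This length can exceed that of the transcripts present. Over the 4 samples Hey1 had the highest mean (61.5 ± 24.1, SD, n = 4), followed by Jag2 (45.0 ± 10.3) and Hes1 (34.1 ± 4.20). The ranges of neighbours in this order overlapped, so that their order is not fixed by these samples. For Hey1 and Jag2 the order followed experimental group. Jag2 was above Hey1 in control 1 (51.6 against 38.8) and mutant 1 (56.0 against 45.8). It was below Hey1 in control 2 (35.5 against 69.6) and mutant 2 (37.0 against 91.8). Notch2 (18.2 ± 4.74) and Jag1 (17.5 ± 3.17) came next and overlapped with each other but not with Hes1 above or with Dll1 below. Dll1 (9.78 ± 2.68), Notch3 (9.36 ± 2.82) and Notch1 (9.03 ± 1.29) also overlapped. Before division by length, Notch1 (112 to 147 CPM) was above Notch3 (51.3 to 102 CPM) in every sample. Hes5 (2.86 ± 1.56) lay below all of these, and Dll3 was the lowest at 0.228 ± 0.0912 CPM per kb.

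**Figure D1:**
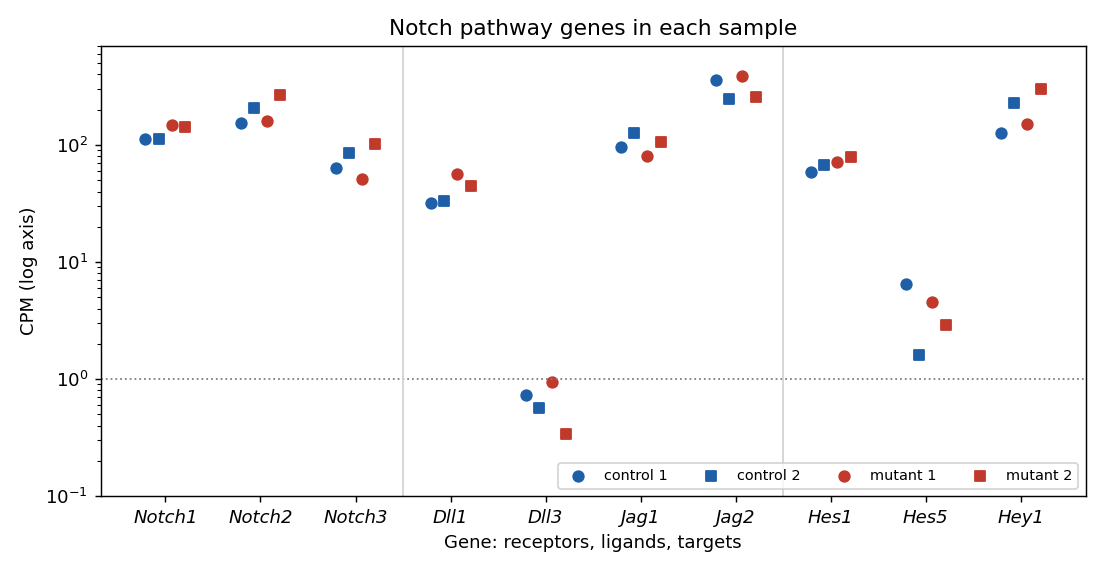
CPM (log axis) of the 10 Notch pathway genes in the 4 samples, with controls in blue, mutants in red, experimental group 1 as circles and experimental group 2 as squares; the dotted line marks 1 CPM. Both mutants lie above both controls for Notch1, Dll1 and Hes1. Notch2, Notch3, Dll3, Jag1, Jag2, Hes5 and Hey1 separate by experimental group, and every value of Dll3 lies under the line.

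To ask which of these genes depend on lamin B1, mutants were compared with controls across 15438 genes that had more than 1 CPM in at least 2 samples. The fit contained genotype and experimental group. Of the 10 Notch genes, 9 were tested, 1 rose (Dll1), 0 fell and 8 did not pass the threshold (edgeR likelihood-ratio test, adjusted p under 0.05). Across all tested genes 1.28% rose and 4.30% fell, together 5.58%. At an unadjusted p under 0.05, 1 of the 9 was higher and 0 were lower, compared with 2460 of all 15438 genes in either direction (15.9%). Under edgeR's quasi-likelihood test and DESeq2 3 of the 9 were higher and 0 lower at that level, compared with 2740 and 1990 of all genes in either direction. The median log2 fold change of the 9 genes was 0.22, compared with -0.01 for all tested genes. Both within-group ratios were above 0 for 6 of the 9 genes (29.8% of all tested genes) and both were below 0 for 1 (32.9% of all). Both mutants lay above both controls in CPM for 3 of the 9 genes (12.6% of all) and below both controls for 0 (13.3% of all). In these sorted populations, fewer cells of a type and less RNA per cell cannot be told apart.

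Ligands were examined first. Dll1, a Delta ligand that activates Notch receptors on neighbouring cells, lies on chromosome 17 at 15367354 to 15376872 (mm10). Its counts were 735 and 692 in control 1 and control 2, and 1289 and 656 in mutant 1 and mutant 2. These correspond to 31.8 and 33.0 CPM in the controls (mean 32.4 ± 0.845, SD, n = 2) and 55.9 and 44.5 CPM in the mutants (50.2 ± 8.09). Both mutants lay above both controls. Dll1 rose 1.54-fold, a log2 fold change of 0.63 (SE 0.194, 95% Wald interval 0.25 to 1.01, edgeR adjusted p = 0.029). Mutant 1 exceeded control 1 by a log2 ratio of 0.81, and mutant 2 exceeded control 2 by 0.43. The call depended on the test, since Dll1 did not pass under the quasi-likelihood test (edgeR adjusted p = 0.0718), under DESeq2 (adjusted p = 0.121) or without the replicate block (edgeR adjusted p = 1). In all of these the log2 fold change stayed between 0.63 and 0.64.

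The other ligands did not follow Dll1. Jag2, the ligand with the highest level, had 359 and 247 CPM in the controls and 390 and 258 CPM in the mutants, a log2 fold change of 0.09 (95% Wald interval -0.36 to 0.54, edgeR adjusted p = 0.932). Its ratios in the experimental groups were 0.12 and 0.06, and the genotypes overlapped. Jag1 had 96.2 and 125 CPM in the controls and 81.0 and 105 CPM in the mutants. It was the only tested Notch gene with a lower level in the mutant of both experimental groups, with a log2 ratio of -0.25 in each, but it did not pass (95% Wald interval -0.60 to 0.09, edgeR adjusted p = 0.552). Dll3, which acts mainly within the cell that makes it and does not activate receptors on neighbours, had 17 and 12 counts in the controls and 22 and 5 in the mutants. At under 1 CPM in every sample it was left out of the test.

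The make-up of the ligand pool was described as the share of each gene in the summed CPM per kb of the 4 ligands. Jag2 accounted for 68.0% and 54.6% in the controls and for 67.1% and 56.3% in the mutants. The share of Jag1 was 21.8% and 33.1% in the controls and 16.7% and 27.4% in the mutants. Dll1 made up 9.92% and 12.0% of the pool in the controls and 15.9% and 16.0% in the mutants. The Dll1 share was thus higher in both mutants, whereas the Jag2 share followed experimental group. These shares use the same counts as the comparison above and are not separate evidence.

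Summed markers of 3 cell types were higher in the mutant of both experimental groups, as Dll1 was. Of 8 markers of neuronal progenitors, 3 rose and 0 fell, namely Kit, Mki67 and Hes6, the last of which is also counted below as a pathway gene. Their summed level was 262 and 238 CPM in the controls and 369 and 384 CPM in the mutants. Hes6 was the largest part of it, with 163 and 80.5 CPM in the controls and 218 and 147 CPM in the mutants. Both within-group ratios were above 0 for 6 of the 8, and those of Neurog1 and Lgr5 had opposite signs. Of 7 markers of horizontal basal cells, 2 rose and 0 fell, namely Krt15 and Egfr, with a summed level of 2171 and 1563 CPM in the controls and 3078 and 2062 CPM in the mutants. Of 8 markers of sustentacular cells 0 rose and 0 fell (at an unadjusted p under 0.05 in edgeR, 1). Their sum was 7632 and 13476 CPM in the controls and 9386 and 17747 CPM in the mutants, mostly from Cyp2g1, Cbr2 and Sec14l3. Both within-group ratios were above 0 for 6 of these 8 and below 0 for 1, Cyp1a2. The part of these cell types in the level of Dll1 was not tested. The 3 tested genes whose pattern over the 4 samples was most like that of Dll1 were 3930402G23Rik, Mdk and Scarna9, with a Euclidean distance between centred log2 CPM of 0.03, 0.08 and 0.08 among 15437 genes compared. None of the 3 passed the threshold (edgeR adjusted p = 0.817, 0.129 and 0.758, and at an unadjusted p under 0.05 only Mdk). 3930402G23Rik had only 32 to 63 counts per sample and Scarna9 63 to 127, so their closeness to Dll1 is uncertain. Mdk encodes midkine, a secreted growth factor, and had 25.8 and 27.5 CPM in the controls and 44.1 and 34.6 CPM in the mutants.

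Receptors were examined next. Notch1, on chromosome 2 at 26457903 to 26516663, had 112 and 113 CPM in the controls and 147 and 142 CPM in the mutants. Both mutants lay above both controls. Its log2 fold change was 0.35 (SE 0.184, 95% Wald interval -0.01 to 0.72), with ratios of 0.39 and 0.32 in the experimental groups. Notch1 was not past the threshold in edgeR (adjusted p = 0.328), nor under the quasi-likelihood test (edgeR adjusted p = 0.197) or DESeq2 (adjusted p = 0.212). It was the tested receptor whose log2 ratios in the experimental groups lay closest together.

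Notch2 had 154 and 205 CPM in the controls and 161 and 265 CPM in the mutants. Its log2 fold change of 0.22 did not pass (95% Wald interval -0.19 to 0.63, edgeR adjusted p = 0.709), with ratios of 0.07 and 0.37 in the experimental groups. The levels of controls and mutants overlapped, because both samples of experimental group 2 were above both of experimental group 1. Notch3, which in many tissues is expressed by the mural cells around vessels, had 63.4 and 86.0 CPM in the controls and 51.3 and 102 CPM in the mutants. Mutant 1 was the lowest and mutant 2 the highest of the 4 samples, with ratios of -0.31 and 0.25. The log2 fold change of Notch3 was -0.03 (95% Wald interval -0.38 to 0.33, edgeR adjusted p = 0.980), and its sign changed to positive with counts thinned to equal gene count totals (0.01) and without the replicate block (0.04). Per kb of exon, Notch2 accounted for 47.6% and 50.6% of the summed level of these 3 receptors in the controls and 47.3% and 52.1% in the mutants.

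Target genes read out the activity of the pathway in many cell types. Hes1, on chromosome 16 at 30064384 to 30067796, had 58.7 and 68.0 CPM in the controls and 71.9 and 79.2 CPM in the mutants. Both mutants lay above both controls. The log2 fold change was 0.26 (SE 0.163, 95% Wald interval -0.06 to 0.58), with ratios of 0.29 and 0.22 in the experimental groups, which was not past the threshold (edgeR adjusted p = 0.483). Hey1, on chromosome 3 at 8663359 to 8667256, had 127 and 227 CPM in the controls and 149 and 299.8 CPM in the mutants. Each mutant was above the control of its own experimental group, with log2 ratios of 0.24 and 0.40, but control 2 was above mutant 1. The log2 fold change of 0.32 did not pass (95% Wald interval -0.09 to 0.72, edgeR adjusted p = 0.498).

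Hes5, the target gene whose promoter window held both TGGGAA matches, had few counts, 151 and 34 in the controls and 105 and 43 in the mutants. These correspond to 6.53 and 1.62 CPM in the controls and 4.55 and 2.91 CPM in the mutants. The 2 controls lay further apart than the 2 mutants and enclosed them, with ratios of -0.51 and 0.81. The log2 fold change was 0.13 with a wide interval (95% Wald interval -1.14 to 1.40, edgeR adjusted p = 0.971), so a change of 2-fold in either direction was not detectable at this depth and spread. Without the replicate block its sign was negative (-0.12).

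**Figure D2:**
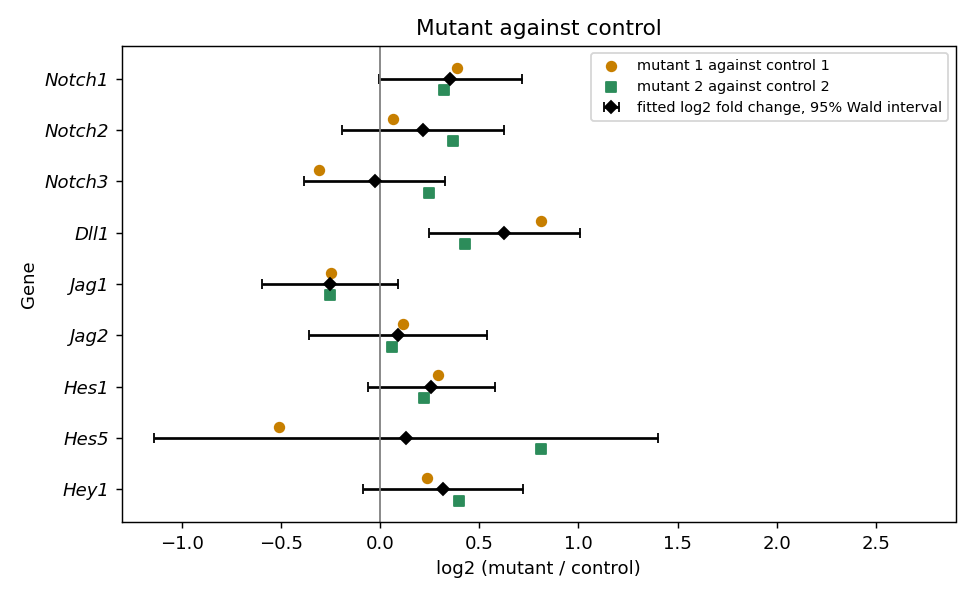
Log2 ratio of mutant to control for the 9 tested Notch genes; black diamonds and bars are the fitted log2 fold change with its 95% Wald interval, and circles and squares are the ratios within experimental groups 1 and 2. The interval of Dll1 alone lies above 0 (0.25 to 1.01), and the 2 ratios of Notch3 and Hes5 fall on opposite sides of 0.

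The remaining machinery of the pathway was followed in 51 other genes, grouped by role. Of these, 46 were tested, 3 rose (6.52%, compared with 1.28% of all tested genes), 5 fell (10.9%, compared with 4.30%) and 38 did not pass. Their median log2 fold change was 0.06. The genes that rose were Dlk2, Mfng and Hes6, and those that fell were Dner, Neurl1a, Psen2, Dtx1 and Dtx3. All 8 calls rested on the comparison within littermates, since none of these genes passed without the replicate block (0 at an unadjusted p under 0.05 in edgeR).

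Among other receptors and ligands, 1 rose and 1 fell of 4 tested. Dlk2, a Delta-like membrane protein without the domain that activates Notch, had 34.7 and 16.2 CPM in the controls and 62.4 and 29.1 CPM in the mutants. Its log2 fold change was 0.85 with SE 0.199 (edgeR adjusted p = 0.00135), with a ratio of 0.84 in both experimental groups, and control 1 stayed above mutant 2. Dner, a neuronal membrane protein with EGF repeats proposed as a Notch ligand, had 147 and 102 CPM in the controls and 95.1 and 34.6 CPM in the mutants. Its log2 fold change was -1.08 with SE 0.225 (edgeR adjusted p = 0.000239), with both mutants below both controls and ratios of -0.62 and -1.56 in experimental groups 1 and 2. Notch4, typical of endothelial cells, stayed under 8 CPM in every sample without passing (edgeR adjusted p = 0.785).

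Genes that act on ligand and receptor proteins were affected in single members. Of 4 genes for ligand endocytosis, which ligands need to pull on the receptor, 1 fell. This gene, Neurl1a, encodes a ubiquitin ligase and had 78.9 and 48.0 CPM in the controls and 56.7 and 25.5 CPM in the mutants, a log2 fold change of -0.69 with SE 0.184 (edgeR adjusted p = 0.00695), but it did not pass under DESeq2 (adjusted p = 0.0597). The ratios of Neurl1a were -0.48 and -0.91 in experimental groups 1 and 2. Mib2, a further ubiquitin ligase for ligands, had the smallest p among the others, with a log2 fold change of -0.41 (edgeR adjusted p = 0.179). Of 5 genes for glycosylation of the receptor, 1 rose. Mfng, a Fringe enzyme that adds sugars to the EGF repeats of Notch and alters which ligands it answers, had 29.7 and 11.6 CPM in the controls and 44.8 and 28.8 CPM in the mutants. Its log2 fold change was 0.94 with SE 0.249 (edgeR adjusted p = 0.00677), and it missed the threshold under the quasi-likelihood test (edgeR adjusted p = 0.0529). Its ratio was smaller in experimental group 1 (0.59) than in experimental group 2 (1.30), a difference that was not tested. Among the others Pofut1, which adds fucose to the EGF repeats, had the smallest p, with a log2 fold change of -0.35 (edgeR adjusted p = 0.292).

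Of 9 genes for receptor cleavage, 1 fell. Psen2, a catalytic subunit of gamma-secretase, had 225 and 136 CPM in the controls and 148 and 89.5 CPM in the mutants, with a log2 fold change of -0.60 and SE 0.189 (edgeR adjusted p = 0.0328) and a ratio of -0.60 in both experimental groups. Among the others Aph1b, a further subunit of that complex, had the smallest p, with a log2 fold change of -0.48 (edgeR adjusted p = 0.120). None of 9 genes of the nuclear complex passed (at an unadjusted p under 0.05, 1 of them, Maml2), and their log2 fold changes ranged from -0.19 to 0.49. Maml2, a Mastermind co-activator, had a log2 fold change of 0.49 (edgeR adjusted p = 0.270).

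Of 9 genes that restrain or modify the signal, 2 fell and 0 rose. Dtx1, a Deltex ubiquitin ligase that binds Notch, had 243 and 127 CPM in the controls and 164 and 41.3 CPM in the mutants, a log2 fold change of -1.08 with SE 0.247 (edgeR adjusted p = 0.00116). Dtx3, of the same family, had 143 and 83.4 CPM in the controls and 88.3 and 47.0 CPM in the mutants, a log2 fold change of -0.76 with SE 0.174 (edgeR adjusted p = 0.000902). In both, mutant 1 was above control 2. The ratios in experimental groups 1 and 2 were -0.56 and -1.61 for Dtx1 and -0.70 and -0.83 for Dtx3. Deltex member Dtx2 had a log2 fold change of 0.43 without passing (edgeR adjusted p = 0.509).

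Of 3 tested other Hes and Hey genes, 1 rose. Hes6, which counteracts Hes1 and favours neuronal differentiation, had 163 and 80.5 CPM in the controls and 218 and 147 CPM in the mutants. Its log2 fold change was 0.65 with SE 0.204 (edgeR adjusted p = 0.0337), and it did not pass under the quasi-likelihood test (edgeR adjusted p = 0.0538). The ratios of Hes6 were 0.42 and 0.87 in experimental groups 1 and 2. For Hey2 the log2 fold change was -0.63 (edgeR adjusted p = 0.677). Hes2, Hes3, Hes7 and Helt, like Dlk1 among the ligands, were not above the filter, and Helt had 0 counts in every sample. None of 3 proneural genes passed (at an unadjusted p under 0.05, 1 of them, Neurod1). Neurod1 had 12.0 and 16.9 CPM in the controls and 22.2 and 28.2 CPM in the mutants, with a log2 fold change of 0.81 and SE 0.276 (edgeR adjusted p = 0.0578). It passed when more than 1 CPM was required in all 4 samples (edgeR adjusted p = 0.0433) and when a background was subtracted from mutant 1 (edgeR adjusted p = 0.04996).

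**Figure D3:**
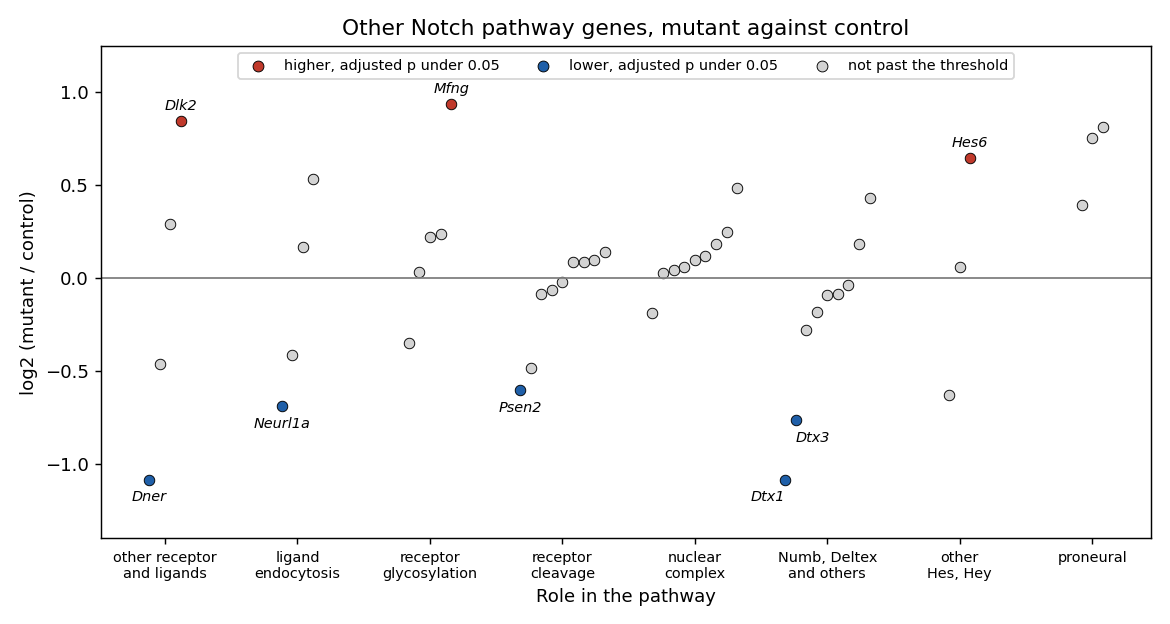
Fitted log2 ratio of mutant to control for the 46 tested other Notch pathway genes, 1 point per gene, placed by role; red points rose, blue points fell and grey points did not pass. The 8 coloured genes are spread over 6 of the 8 roles, from Dner and Dtx1 at -1.08 to Mfng at 0.94, and the nuclear complex and proneural roles hold grey points only.

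The genes that fell did so together with markers of mature olfactory sensory neurons, all 8 of which fell, with a median log2 fold change of -1.35. The summed level of these markers was 16326 and 7027 CPM in the controls and 8995 and 2000 CPM in the mutants. For each of Dner, Neurl1a, Psen2, Dtx1 and Dtx3, mutant 2 was the lowest and control 1 the highest of the 4 samples, as for this sum. These genes were named because they fell, and all were also lower in experimental group 2. Any gene with both of these differences tends to have the same highest and lowest sample, so the match is not separate evidence. In Dner control 2 (102 CPM) was above mutant 1 (95.1 CPM), unlike in the sum. Single markers of other cell types also fell, namely Dcx of immature neurons (log2 fold change -0.63, 1 of 6 markers), Fabp7 of glia (-1.04, 1 of 7), and Col1a1 (-0.65) and Col1a2 (-0.76) of fibroblasts (2 of 6). Whether these genes fell within neurons or with the share of neurons was not tested.

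How the genes varied between experimental groups was described with the other term of the same fit. Of the 9 tested Notch genes, 4 differed between experimental groups, 3 higher and 1 lower in experimental group 2 (44.4%, compared with 31.6% of all tested genes, of which 17.7% were higher and 14.0% lower in experimental group 2). Experimental group joins treatment batch, parents, age, sex, sample preparation and sequencing, whose parts in these differences cannot be told apart. Alignments that were not unique numbered 67710764 and 62182762 in control 1 and mutant 1, and 10308536 and 6757456 in control 2 and mutant 2. Hey1 was 1.90-fold higher in experimental group 2 (log2 0.92, 95% Wald interval 0.52 to 1.33, edgeR adjusted p = 9.38e-05). Notch3 was 1.64-fold higher (log2 0.72, edgeR adjusted p = 0.000623) and Notch2 was 1.48-fold higher (log2 0.57, edgeR adjusted p = 0.0251). Jag2 was lower, with a log2 fold change of -0.57 (95% Wald interval -1.02 to -0.12, edgeR adjusted p = 0.0426). Jag1 was higher without passing (log2 0.38, 95% Wald interval 0.03 to 0.72, edgeR adjusted p = 0.0864). Hes5 had the widest interval, with a log2 fold change of -1.32 (95% Wald interval -2.59 to -0.05, edgeR adjusted p = 0.120). For Notch1, Dll1 and Hes1 the log2 differences were -0.02, -0.14 and 0.18, and their intervals included 0.

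**Figure D4:**
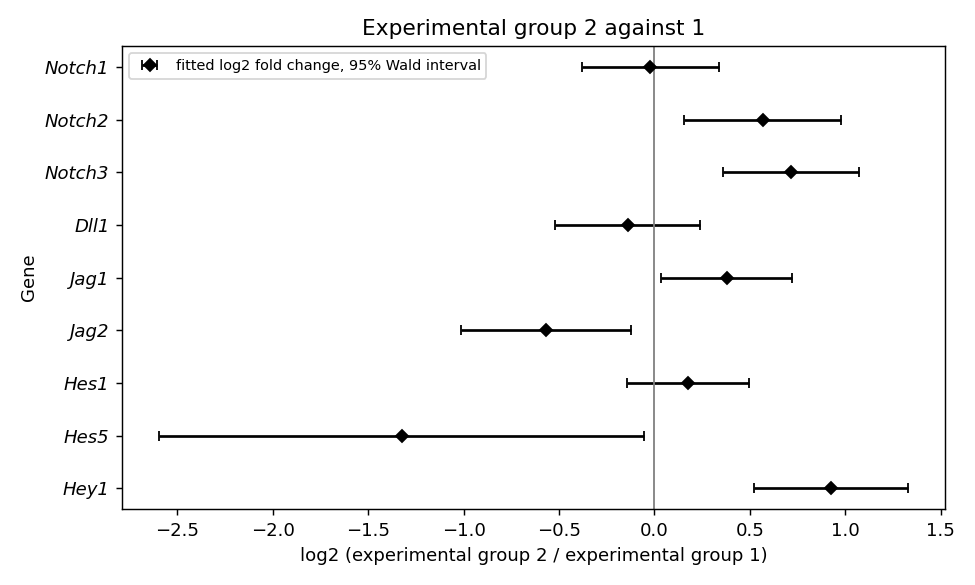
Fitted log2 ratio of experimental group 2 to experimental group 1 for the 9 tested Notch genes, with 95% Wald intervals as bars. The intervals of Hey1, Notch3, Notch2 and Jag1 lie above 0 and those of Jag2 and Hes5 below it, of which Jag1 and Hes5 did not pass after adjustment, whereas the intervals of Notch1, Dll1 and Hes1 cross 0.

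Markers of several cell types also differed between experimental groups. The summed level of 8 sustentacular markers was 7632 and 9386 CPM in control 1 and mutant 1 and 13476 and 17747 CPM in control 2 and mutant 2. Hey1 and Notch2 had the same order of samples, but Notch3 did not, since mutant 1 was its lowest. A gene higher in both mutants, and by more in experimental group 2, has this order, and the share of all genes with it was not counted. Horizontal basal markers had lower sums in experimental group 2 than the sample of the same genotype in experimental group 1, as Jag2 did. That sum was mostly Krt5 and Krt14, and of the 7 markers 4 were lower and 2, Trp63 and Egfr, were higher in experimental group 2. Mural markers summed to 363 and 353 CPM in experimental group 1 and 961 and 988 CPM in experimental group 2. In experimental group 2 this sum was mostly Rgs5, the 1 of the 7 markers that was higher there. The 4 that were lower in experimental group 2 were Pdgfrb, Acta2, Cspg4 and Kcnj8, the last at few counts. Endothelial markers summed to 49.1 to 122 CPM. Among these 9, 3 were lower and 0 higher in experimental group 2, and 0 rose or fell between genotypes. Immune markers summed to 236 and 74.0 CPM in control 1 and mutant 1, and to 33.4 and 67.6 CPM in control 2 and mutant 2. All 7 tested ones had within-group ratios of opposite sign, and 4 were lower and 0 higher in experimental group 2. Cd79a had 0 counts in both controls and in mutant 2. The part of these cell types in the levels of the Notch genes was not tested.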

How the data were processed

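RNA-seq libraries of sorted Tomato-positive cells were made from 4 mice. The deposited values are raw counts per gene symbol. The authors depleted ribosomal RNA, removed remaining ribosomal reads with Bowtie2 2.0.6, quality filtered single-end reads, aligned them to mm10 with TopHat2 2.0.7 and counted them with HTSeq in intersection-nonempty mode. The strand setting is not given in the sources used here, so reads of overlapping genes on opposite strands may not be separated, and HTSeq sets aside reads with several alignments. The 5 tally lines of each file were left out of tests and library totals, among them the reads outside genes or in several genes (together 23.3% to 40.3% of uniquely aligned reads) and, in control 1 for example, 67710764 alignments that were not unique. The study's own code kept these lines in its table and totals, so its library sizes and tested genes differ from those used here. Gene models are from GENCODE M21 (98.0% of symbols matched).

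Genes with more than 1 CPM in at least 2 samples were tested in R 4.3.3 with edgeR 4.0.16 (TMM factors, genotype and experimental group as terms, likelihood-ratio test, Benjamini-Hochberg threshold 0.05), the kind of model and CPM limit being those of the study. CPM are on TMM-scaled library sizes. Within-group ratios used log2 CPM with a prior count of 2 and carry no test. The labels state that a group shares parents, age, sex and sequencing, which gives the pairing. Across genes, the differences between the experimental groups in controls and in mutants correlated with r = 0.52. With 2 samples per genotype an exact two-sided permutation test that ignores the littermate pairs cannot go below p = 0.333. A permutation within the pairs has fewer arrangements. At the library totals, 3 counts correspond to 0.127 to 0.202 CPM. Named genes were the 10 members, other pathway genes past the threshold, the gene with the smallest p in its role among those not past it, and the 3 nearest patterns to a member past the threshold. Dlk1, Helt, Hes2, Hes3 and Hes7 were added after their values were seen. The members, lists and rules were chosen with earlier results of these data known. Alternatives were the quasi-likelihood test, DESeq2 1.42.0 (which gave no adjusted p for 5986 genes, Hes5 among them), no replicate block, RLE factors, other filters, thinning to 14833396 counts, subtraction of 1.80 counts per kb from mutant 1, and leaving out samples.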

Additional observations from a re-analysis of the deposited data

Results flagged for a closer look

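In 3 of the 10 Notch genes the mutant moved in opposite directions in the experimental groups, each direction resting on 1 mutant and 1 control, and the difference was not tested. The log2 ratio of mutant to control for Notch3 was -0.31 between the first littermates and 0.25 between the second. For Hes5 these ratios were -0.51 and 0.81. For Dll3, at 5 to 22 counts, they were 0.34 and -0.62. In reads that the comparisons do not use, 39.4% of uniquely aligned reads of mutant 1 lay outside annotated genes, above both controls.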

How the results depend on the processing

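The count of Notch genes that rose, 1 (Dll1), was 0 under edgeR's quasi-likelihood test and under DESeq2 (3 at an unadjusted p under 0.05 in each) and 0 without the replicate block (0 at an unadjusted p under 0.05). Without the block 0 of the other pathway genes rose and 0 fell (0 at an unadjusted p under 0.05 in edgeR), and under the quasi-likelihood test 1 of them rose (Dlk2) and 5 fell. When each of the 4 samples was left out in turn without the block, the counts that rose (both lists) and fell (other pathway genes) were 0 each time. At an unadjusted p under 0.05 in edgeR, these fits had 0 Notch genes, 0 to 2 other pathway genes that rose and 0 to 4 that fell. In them the remaining single sample of a genotype is assumed to vary like the others. Across all tested genes, 197 rose and 664 fell, compared with 115 and 496 under the quasi-likelihood test, 6 and 0 without the block (348 at an unadjusted p under 0.05 in edgeR), and 3 to 33 and 0 to 5 with samples left out.

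Signs changed only for genes that had not passed. The log2 fold change of Notch3 was 0.038 without the block and 0.011 with thinned counts, and Hes5 was -0.12 without the block. With samples left out, log2 fold changes ranged from -0.13 to 0.56 for Notch2, from -0.51 to 0.45 for Notch3 (0.32 without control 2), from -0.24 to 0.40 for Jag2 (-0.11 without control 2), from -0.76 to 1.22 for Hes5 (-0.49 without mutant 1) and from -0.22 to 0.87 for Hey1 (-0.012 without control 1). Dll1 stayed between 0.43 and 0.82. The other genes past the threshold kept their direction but moved by over 1.5 times when some of the libraries were left out, which breaks the littermate pairs. The log2 fold changes without control 1 and without control 2 were 1.51 and 0.44 for Dlk2, 1.68 and 0.35 for Mfng, 1.19 and 0.21 for Hes6, -0.64 and -1.13 for Dner, -0.21 and -0.90 for Neurl1a, -0.18 and -0.87 for Psen2, -0.28 and -1.20 for Dtx1 and -0.29 and -1.04 for Dtx3. Without mutant 1 and without mutant 2 they were 0.19 and 1.33 for Dlk2, 0.47 and 1.16 for Mfng, 0.27 and 0.88 for Hes6, -1.85 and -0.35 for Dner, -1.33 and -0.13 for Neurl1a, -1.02 and -0.25 for Psen2, -2.17 and -0.13 for Dtx1 and -1.28 and -0.33 for Dtx3. RLE factors, both other filters, thinning and subtraction of a background from mutant 1 kept Dll1 past the threshold. The number of Notch genes that differed between experimental groups was 4 or 5 under every alternative run for it. The cause of these differences was not tested. Dll3, at 5 to 22 counts, had too few counts for the test.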
